A study of Bos taurus with 9 samples.

Results

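Granulosa cells collected 30 days after calving were set against granulosa cells collected 120 days after calving on 3 of the 9 arrays of the series. The 3 arrays were those titled for 30 days, with 30-day RNA in the Cy5 channel and 120-day RNA in the Cy3 channel. The other 6 arrays carried RNA of 60 days (3 arrays) or 90 days (3 arrays) in Cy5, again with 120-day RNA in Cy3. All cells were from Holstein-Friesian cows and came from dominant follicles, aspirated by ovum pick-up when 42 hours had passed since an injection of prostaglandin F2 alpha. Centrifugation and a buffer wash separated them from the follicular fluid, and the labels mention no sorting. The labels call the 3 arrays of a day biological replicates, and they do not say how many cows or follicles gave each RNA. Small amounts of RNA were amplified linearly with T7 polymerase and labelled chemically, and no array had the dyes exchanged. A dye effect of a probe and a difference between 30 and 120 days therefore cannot be told apart, while a dye effect that is equal on all arrays cancels between 30 days and the 2 other days.

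Granulosa cells line the follicle, surround the oocyte and turn thecal androgen into oestradiol through aromatase. They also make inhibin, activin and follistatin, hormones and binding proteins that act on the pituitary and within the follicle. In dairy cows the first weeks of lactation are known for negative energy balance, when milk output takes more energy than feed supplies, and the follicles of that period grow under low insulin and glucose and raised fatty acids and ketone bodies. The comparison asks how granulosa cells of that early period differ from those of cows well into lactation.

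The 30-day arrays were not alike. Pearson r of their log2 ratios over all tested probes was 0.23 between replicates 1 and 2, 0.12 between replicates 1 and 3 and 0.46 between replicates 2 and 3. On replicate 1 only 29.8% of probes exceeded the negative control spots in the 30-day channel, against 53.3% in its 120-day channel. On replicates 2 and 3 these shares were 74.5% and 73.4% in the 30-day channel and 74.4% and 80.3% in the 120-day channel. Judged by the correlation of Cy3 signals over the series, a different 120-day RNA was probably on each of the 3 arrays. The authors' value table adds a doubt about names, since its columns named for 30 days replicates 1 and 3 matched the array files of 60 days replicates 1 and 2 best (Spearman rho 0.83 and 0.82 over probes). Their rho with the files of the same name was 0.52 and 0.16. The array files were taken as named.

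The labelled cell type was present on replicate 1 and had dim markers on the others. The median log2 signal of 18 granulosa markers was 11.38, 7.82 and 8.05 in the 30-day channels of replicates 1, 2 and 3, against 10.71, 10.31 and 9.66 in the 120-day channels. So granulosa markers were bright in the 30-day RNA of 1 array and dim in that of the other two, while all 3 of the 120-day RNAs were brighter than the dim ones. The median of 17 macrophage and monocyte markers was 8.19, 12.05 and 12.72 in the 30-day channels, against 9.25, 9.14 and 9.03 in the 120-day channels. The macrophage markers above a ratio of 1 numbered 1 of 17 on replicate 1, 17 of 17 on replicate 2 and 16 of 17 on replicate 3. CD163, a scavenger receptor of macrophages named after its values were seen, had log2 ratios of -1.47, 3.98 and 5.11. None of these markers was below background in the 30-day channel of all 3 arrays. In bulk RNA, fewer cells of a type and less RNA per cell cannot be told apart. The part of this shift in the results below was not tested.

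**Figure D1:**
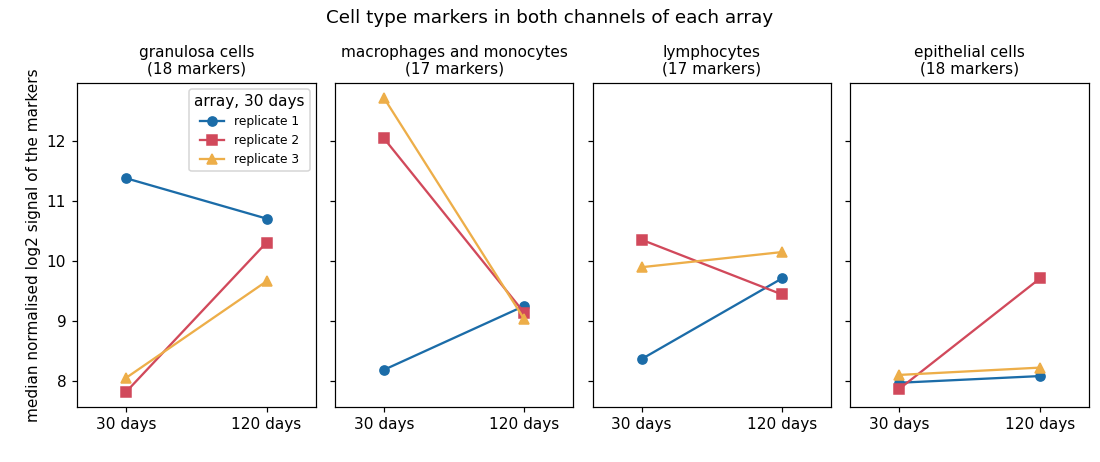
Median normalised log2 signal of 4 lists of cell type markers (y axis) in the 30-day channel and the 120-day channel (x axis) of each 30-day array, 1 line per array. Granulosa markers are brighter in the 30-day channel of replicate 1 (11.38, against 10.71) and dimmer on replicates 2 and 3. Macrophage markers run the other way.

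Against 120 days, 79 of 38823 probes passed an adjusted p of 0.05 at 30 days (0.203%; limma, Benjamini-Hochberg adjustment over all probes), 37 higher (0.0953%) and 42 lower (0.108%). At an unadjusted p under 0.05 there were 8001 probes (20.6%). Of the 79, 51 had a gene symbol and 53 were at least 2-fold. Taken as genes, each by its brightest probe, 41 of 14281 passed (0.287%), 14 higher (0.098%) and 27 lower (0.189%). Every one of the 79 probes had the same sign on all 3 arrays. Under median centring in place of loess, 43 probes passed, 4 higher and 39 lower, of which 10 were among the 79.

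The calls depended on which arrays were in the fit, and the test takes its spread from all 9. With 1 array left out, between 0 and 186 probes passed. None passed without 30 days replicate 2, without 30 days replicate 3 or without 60 days replicate 3, where 3264, 4781 and 7061 probes had an unadjusted p under 0.05. Without 30 days replicate 1 the count was 186, 150 of them higher, and 40 of the 79 were among them. Leaving out 60 days replicates 1 or 2 left 33 or 30 probes, and leaving out 90 days replicates 1, 2 or 3 left 20, 35 or 35. A fit to the 3 arrays of 30 days alone called 0 probes (4974 at an unadjusted p under 0.05).

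**Figure D2:**
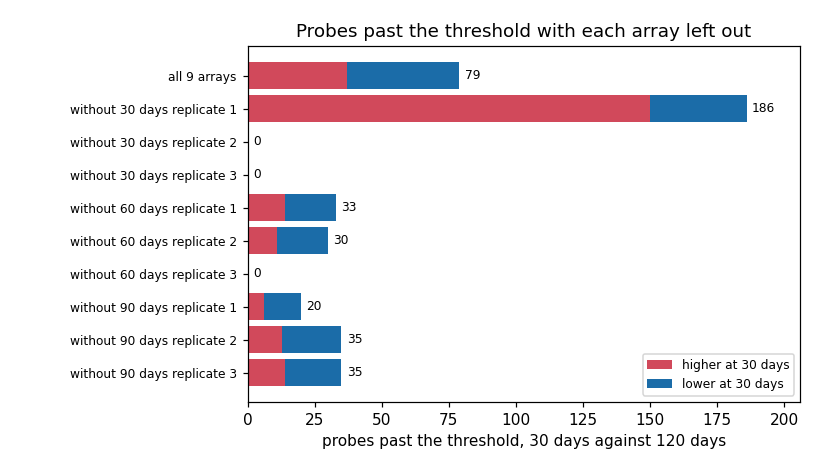
Number of probes past the threshold for 30 days against 120 days (x axis) in the fit to all 9 arrays and in fits that leave out 1 array each (y axis), split into probes higher and lower at 30 days. The bar is empty without 30 days replicates 2 or 3 and without 60 days replicate 3, and reaches 186 without 30 days replicate 1.

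A test of the mean over 3 arrays favours genes on which the arrays are alike, and the names were limited to genes with 1 sign on all 3, so closeness of the arrays on these genes follows largely from how they were chosen. For each of the 39 genes named by that rule, replicate 1 lay within 1 log2 unit of both other arrays, and the gap between highest and lowest array ran from 0.03 to 1.05. In what follows, 3 log2 ratios of 30-day over 120-day signal are those of replicates 1, 2 and 3 in that order, and errors are standard errors (SE) of the fit over 3 arrays. Adjusted p-values of the called genes, from limma, ran from 0.0238 to 0.048. In the 30-day channel, 35 of the 39 genes were above background on all 3 arrays. RSRC1, LOC534520, MOS and DPYSL4 were above it on 2. In the 120-day channel, DPYSL4 was above background on 1 of 3 arrays and the other 38 genes on all 3. With several probes per gene on this array, 23 of the 39 genes had 1 tested probe and 16 had more. Of the 26 other probes of those 16 genes, 13 had the sign of the called probe. Another probe of the same gene passed for SDHC and RSRC1.

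**Figure D3:**
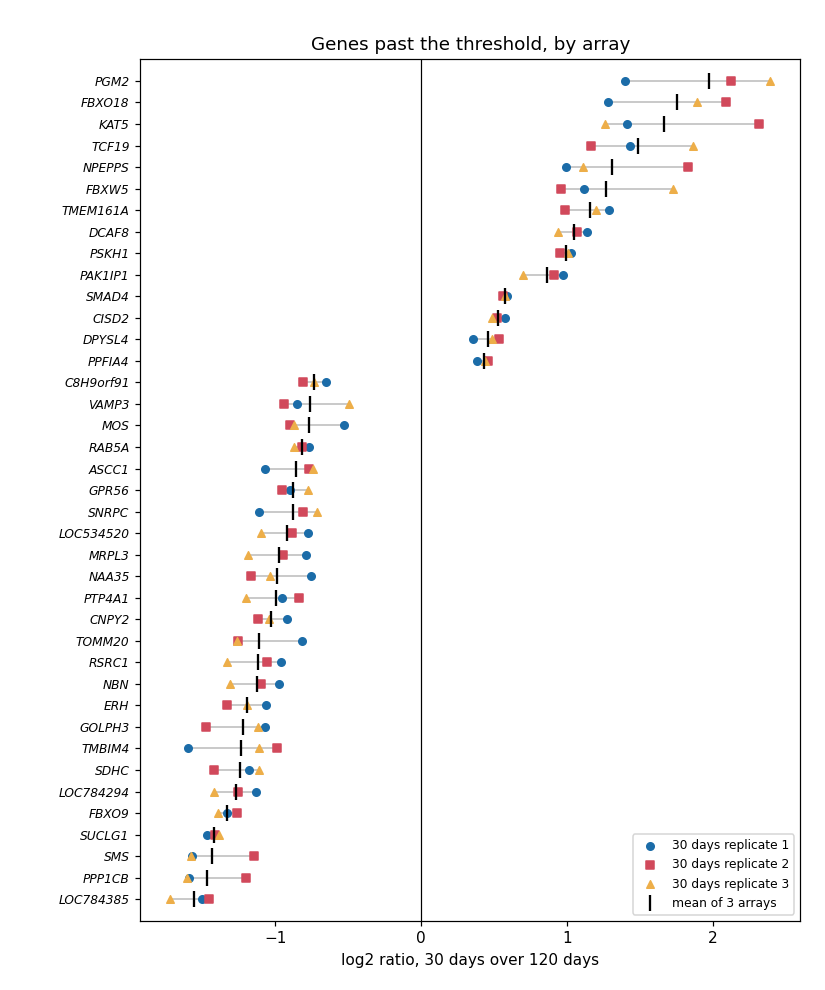
Log2 ratio of 30-day over 120-day signal (x axis) of the 39 named genes past the threshold (y axis), with 1 symbol per array and a black bar for the mean of 3 arrays. All 3 arrays lie on the same side of 0 for every gene, from PGM2 at 1.97 down to LOC784385 at -1.56.

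Among named genes of mitochondria and carbon metabolism, 4 fell and 2 rose, where 0.189% of all genes were called lower and 0.098% higher. SDHC, a membrane subunit that anchors succinate dehydrogenase (complex II of the respiratory chain), had ratios of -1.18, -1.42 and -1.11. The 3 arrays agreed closely, and SDHC fell by 1.24 ± 0.09 (2.36-fold lower, adjusted p = 0.0238 by limma). A second SDHC probe gave -1.17, -1.34 and -1.03 and passed too. SUCLG1, the alpha subunit of succinyl-CoA ligase, which works 1 step before succinate dehydrogenase in the citric acid cycle, had ratios of -1.47, -1.41 and -1.39. All 3 arrays were low by nearly the same amount, and SUCLG1 fell by 1.42 ± 0.14 (2.68-fold lower, adjusted p = 0.0261 by limma). TOMM20, a receptor of the outer membrane translocase that takes proteins into mitochondria, had ratios of -0.82, -1.26 and -1.26 and fell by 1.11 ± 0.11. Its other probe averaged -0.06 and did not pass. Of 31 measured genes of mitochondrial import and dynamics, the other 30 did not pass, and the list median was -0.11. MRPL3, a protein of the large mitochondrial ribosome subunit, had ratios of -0.79, -0.95 and -1.18 and fell by 0.97 ± 0.13. Of 72 measured mitochondrial ribosomal protein genes, the other 71 did not pass. The median of that list was -0.02, and 21 genes lay above 0 on all 3 arrays and 18 below.

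PGM2 rose, and had the highest mean of the named genes that passed. It encodes a phosphoglucomutase family enzyme that acts on pentose phosphates and feeds them towards glycolysis. Its ratios were 1.40, 2.13 and 2.39, lowest on replicate 1, with a mean of 1.97 ± 0.23 (3.93-fold higher, adjusted p = 0.0426 by limma). CISD2, an iron-sulphur protein of the mitochondrial outer membrane and the endoplasmic reticulum, had ratios of 0.57, 0.52 and 0.49. It rose by 0.53 ± 0.07, a small change that was nearly equal on the 3 arrays.

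Of 62 measured genes of cullin and F-box ubiquitin ligases, 3 rose and 1 fell, and 58 did not pass, where 0.098% of all genes were called higher and 0.189% lower. These enzymes mark proteins for degradation, and F-box and DCAF proteins choose their substrates. FBXO9 had ratios of -1.33, -1.26 and -1.39 and fell by 1.33 ± 0.13 (2.52-fold lower, adjusted p = 0.0261 by limma). The members that rose were high on every array. FBXO18 (current symbol FBH1), a DNA helicase with an F-box that acts at stalled replication forks, had ratios of 1.28, 2.09 and 1.89 and rose by 1.75 ± 0.20. Its 2 other probes averaged -0.19 and 0.52 and did not pass. FBXW5 had ratios of 1.11, 0.96 and 1.73 and rose by 1.27 ± 0.16, and DCAF8, an adaptor of CUL4 ligases, rose by 1.05 ± 0.13 with ratios of 1.14, 1.07 and 0.94. The median of the list was 0.06, beside -0.01 for all 14281 genes, and it turned negative under median centring. NPEPPS, a cytosolic aminopeptidase, had ratios of 1.00, 1.83 and 1.11 and rose by 1.31 ± 0.16, while its 2 other probes averaged -0.06 and -0.12.

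The few DNA repair genes that passed moved both ways. NBN, which with MRE11 and RAD50 forms the complex that senses double-strand breaks, had ratios of -0.98, -1.10 and -1.31. All 3 arrays were low, and NBN fell by 1.13 ± 0.08 (2.19-fold lower, adjusted p = 0.0238 by limma). KAT5 (TIP60), an acetyltransferase that acts on histones and on the ATM kinase, had ratios of 1.42, 2.32 and 1.26 and rose by 1.66 ± 0.22, highest on replicate 2. The 2 other KAT5 probes averaged -0.06 and -0.18 and did not pass. Of 39 measured genes of double-strand break repair and chromatin acetylation, KAT5 and FBXO18 rose, NBN fell and 36 did not pass. Of all genes, 0.098% were called higher and 0.189% lower. The median of the list was 0.05. ASCC1, a subunit of a transcription coactivator complex that also takes part in repair of alkylated DNA, had ratios of -1.07, -0.77 and -0.74 and fell by 0.86 ± 0.08. The other ASCC1 probe averaged -0.12 and did not pass. TCF19, a nuclear protein with a forkhead-associated domain, rose by 1.49 ± 0.19 with ratios of 1.43, 1.17 and 1.87.

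SMS, or spermine synthase, makes spermine from spermidine. Its ratios were -1.57, -1.15 and -1.58, and it fell by 1.43 ± 0.18 (2.70-fold lower, adjusted p = 0.0472 by limma). It was the only one of 11 measured polyamine genes called by its brightest probe, where 0.189% of all genes were called lower. SAT1, the acetyltransferase that starts polyamine breakdown, had ratios of -2.91, -1.42 and -2.50 on its brightest probe and an adjusted p of 0.0596 (limma). A dimmer SAT1 probe passed at -2.06, -1.49 and -2.26 (adjusted p = 0.0426). ODC1, the enzyme that makes putrescine, had ratios of -0.76, -1.26 and -0.44 and did not pass (adjusted p = 0.0791 by limma). The median of the polyamine list was -0.25, and 6 of its 11 genes lay below 0 on all 3 arrays, against 27.1% of all genes.

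Phosphatases and signalling proteins included several of the steadiest values. PPP1CB, a catalytic subunit of protein phosphatase 1, had ratios of -1.59, -1.20 and -1.61 and fell by 1.47 ± 0.13 (2.76-fold lower, adjusted p = 0.0238 by limma). It was the only one of 26 measured genes of protein phosphatases 1 and 2A to pass, where 0.189% of all genes were called lower. PTP4A1, a small membrane-bound tyrosine phosphatase, had ratios of -0.95, -0.84 and -1.20 and fell by 1.00 ± 0.11. Other PTP4A1 probes averaged -0.23 and -0.23 and did not pass. SMAD4, the shared partner of the SMADs that carry TGF-beta, activin and BMP signals, had ratios of 0.59, 0.56 and 0.58. It rose by 0.58 ± 0.06 (1.49-fold higher, adjusted p = 0.0336 by limma), while its 2 other probes averaged -0.38 and -0.16 and did not pass. PSKH1, a serine kinase, had ratios of 1.03, 0.95 and 1.01 and rose by 1.00 ± 0.11. GPR56 (current symbol ADGRG1), an adhesion receptor of the G protein-coupled class, had ratios of -0.90, -0.96 and -0.77 and fell by 0.88 ± 0.11.

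Genes of membrane traffic that passed by their brightest probe fell. GOLPH3, a phosphoinositide-binding protein of the Golgi, had ratios of -1.07, -1.48 and -1.12 and fell by 1.22 ± 0.14. RAB5A, the small GTPase of early endosomes, had ratios of -0.77, -0.81 and -0.87 and fell by 0.82 ± 0.10. They were the 2 genes of 52 measured on the Golgi and vesicle traffic list that passed, where 0.189% of all genes were called lower. The median of that list was 0.05. That median turned negative under median centring (-0.05) and without replicate 3 (-0.10). A dimmer probe of VPS26A, a retromer subunit on that list, rose by 1.37 ± 0.16 with ratios of 1.51, 1.61 and 1.00, while its brightest probe, at -0.35, -0.38 and -0.74, did not pass. VAMP3, a SNARE of recycling endosomes, had ratios of -0.85, -0.94 and -0.49 and fell by 0.76 ± 0.10. Its other probes averaged -0.48 and -0.08 and did not pass. TMBIM4, a Golgi protein of the Bax inhibitor family, had ratios of -1.60, -0.99 and -1.11 and fell by 1.23 ± 0.12. Other probes of TMBIM4 averaged -0.17 and 0.03 and did not pass. CNPY2, a protein of the endoplasmic reticulum, had ratios of -0.92, -1.12 and -1.04 and fell by 1.03 ± 0.12.

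Among RNA-processing genes, SNRPC, a protein of the U1 particle that recognises the 5' splice site, had ratios of -1.11, -0.81 and -0.71 and fell by 0.88 ± 0.11. Other SNRPC probes averaged -0.22 and 0.13 and did not pass. ERH, a small nuclear protein tied to mRNA splicing, had ratios of -1.07, -1.33 and -1.19 and fell by 1.20 ± 0.15. The other ERH probe averaged -0.56 and did not pass. RSRC1, a splicing factor with serine and arginine repeats, gave opposite answers on its 2 probes. The brighter one fell by 1.12 ± 0.13 with ratios of -0.96, -1.06 and -1.33, and the dimmer one rose by 0.95 ± 0.12 with ratios of 0.72, 0.85 and 1.26, so the probes settle no direction for the gene. RSRC1 is counted among the lower genes by its brighter probe alone. On the splicing list of 61 measured genes, 2 were called lower, 59 did not pass and the median was -0.11. Of all genes, 0.189% were called lower.

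The remaining named genes were of mixed function. MOS, the kinase that starts the MAP kinase cascade in the oocyte, fell by 0.77 ± 0.09 with ratios of -0.53, -0.90 and -0.87. Its other probes averaged -0.09 and 0.04 and did not pass. The other 10 measured oocyte genes did not pass, where 0.189% of all genes were called lower. In the 30-day channel, 1 of the 11 was above background on all 3 arrays. NAA35, a subunit of an N-terminal acetyltransferase, fell by 0.99 ± 0.10 with ratios of -0.76, -1.17 and -1.04. The other NAA35 probe averaged -0.06 and did not pass. C8H9orf91 (current symbol TMEM268), at -0.65, -0.81 and -0.74, fell by 0.73 ± 0.09.

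TMEM161A rose by 1.16 ± 0.12 with ratios of 1.29, 0.99 and 1.20. Its other probes averaged -0.13 and -0.11 and did not pass. PAK1IP1, a protein of ribosome assembly, had ratios of 0.97, 0.91 and 0.70 and rose by 0.86 ± 0.11. PPFIA4, a liprin, rose by 0.43 ± 0.05 with ratios of 0.39, 0.46 and 0.44, the smallest change among the genes named. DPYSL4 had ratios of 0.36, 0.54 and 0.49 and passed (adjusted p = 0.044 by limma), but its 120-day signal was above background on 1 array only, so the size of its rise is not well measured. Of the genes that carry no name in the table used, LOC784385 fell by 1.56 ± 0.20 with ratios of -1.50, -1.46 and -1.72. LOC784294 had -1.13, -1.26 and -1.42, and LOC534520 had -0.78, -0.88 and -1.10. ANKRD46 and LRP4 lay past the limit of 25 names and were added after their values were seen. ANKRD46 fell by 0.58 ± 0.07 with ratios of -0.57, -0.44 and -0.72. Other probes of ANKRD46 averaged -0.10 and -0.02 and did not pass. LRP4 passed as lower (adjusted p = 0.0238 by limma), but was not well above background in the 30-day channel of any array and was above it in the 120-day channel of 1, so no size is given.

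The same genes were then read at 60 and 90 days. All these ratios share the 120-day RNAs, so the days are given side by side and their likeness is not a result. Over the 14 named genes higher at 30 days, the median log2 ratio was 1.10 at 30 days, 1.09 at 60 days and 0.55 at 90 days. Over the 25 lower ones, RSRC1 by its brighter probe among them, it was -1.11, -1.02 and -0.23. SDHC averaged -1.24 at 30 days, -1.41 at 60 days and -0.03 at 90 days, and at 90 days its 3 arrays were -0.02, -0.21 and 0.15. SUCLG1 averaged -1.42, -1.26 and -0.14 at the 3 days. SMAD4 averaged 0.58, 0.45 and 0.13, and PGM2 1.97, 2.12 and 1.00. Since the members were chosen at 30 days, that 38 of the 39 lay farther from 0 at 30 than at 90 days is a description. For 30 and 60 days that number was 25 of the 39. Of the 79 called probes, 72 passed against 120 days at 60 days too, and 0 did at 90 days. On all 9 arrays, 61 of the 79 had the 30-day sign.

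**Figure D4:**
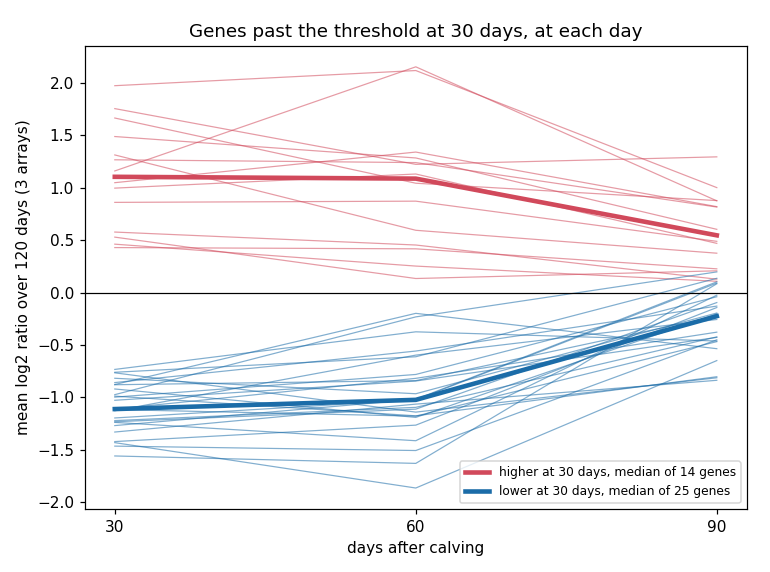
Mean log2 ratio over 120 days (y axis, 3 arrays per day) of the 39 named genes past the threshold at 30 days, at 30, 60 and 90 days after calving (x axis). Thin lines are genes, and thick lines are the medians of the 14 higher genes (1.10, 1.09 and 0.55) and of the 25 lower genes (-1.11, -1.02 and -0.23).

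The direct contrast of 30 with 60 days called 0 of 38823 probes (0%; limma, adjusted over all probes), with 4729 at an unadjusted p under 0.05 (12.2%). That of 30 with 90 days also called 0 (0%), with 2128 at an unadjusted p under 0.05 (5.48%). Dye effects that are equal on all arrays cancel in both. The smallest adjusted p among the 39 named genes was 0.343 against 60 days and 0.355 against 90 days. For SDHC, 30 minus 90 days was -1.21 ± 0.31 (95% half-width), an interval clear of 0 that failed the correction (adjusted p = 0.355 by limma). For 30 minus 60 days it was 0.17 ± 0.31, an interval that spans 0. Same-numbered arrays of 30 and 60 days deviated together (r from 0.34 to 0.51 in 3 pairs), and a paired fit to these 6 arrays, added after the data were seen, also called 0 probes (5399 at an unadjusted p under 0.05).

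Some genes lay farther apart between 30 and 60 days, none past the correction, and they are named here after their values were seen. NBN averaged -1.13 at 30 days and -0.60 at 60 days, a difference of -0.53 ± 0.26 (95% half-width). MRPL3 averaged -0.97 at 30 days and -0.23 at 60 days, a difference of -0.74 ± 0.42. TMEM161A averaged 1.16 at 30 days and 2.15 at 60 days, a difference of -0.99 ± 0.40. On TMEM161A the highest 30-day array (1.29) lay under the lowest 60-day array (1.85). The adjusted p was 0.343 for each of these by limma.

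The glycolysis list had the largest shift of any pathway list measured. It holds enzymes, glucose transporters and lactate transporters, and of 27 measured genes only PGM2 passed, where 0.098% of all genes were called higher. Its median log2 ratio was 1.09, with 0.30, 1.42 and 1.60 on the 3 arrays, beside -0.01 for all genes. Of the 27 genes, 12 lay above 0 on all 3 arrays and 0 below, where 20.1% of all genes lay above 0 and 27.1% below. The median was 0.65 without replicate 3, 0.80 without replicate 2 and 1.20 without replicate 1.

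SLC16A3, the transporter that exports lactate, had ratios of 2.66, 3.10 and 3.47. It was high on every array, with a mean of 3.08 ± 0.62 and an adjusted p of 0.101 (limma). PFKL, a phosphofructokinase subunit, had ratios of 2.14, 1.75 and 4.09 (adjusted p = 0.113 by limma). LDHA, the lactate dehydrogenase subunit that favours lactate, had ratios of 0.99, 1.42 and 1.62 and a mean of 1.34 ± 0.33 (adjusted p = 0.136 by limma). SLC2A3, a high-affinity glucose transporter, and GPI, the enzyme of the second step, split the arrays instead, and were chosen after their values were seen. SLC2A3 had ratios of -1.30, 2.67 and 2.33, and GPI had -0.22, 2.05 and 2.54, both high where macrophage markers were high. SLC2A1, the widely expressed glucose transporter, had ratios of 0.45, -0.76 and 1.60.

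The hypoxia list, targets and regulators of the oxygen-sensing factor HIF, had a median of 0.55 over 22 measured genes, of which 0 passed. BNIP3, a mitophagy receptor of the outer mitochondrial membrane, had ratios of 1.51, 2.85 and 4.29 (mean 2.88 ± 0.92, adjusted p = 0.183 by limma). VEGFA, the angiogenic growth factor, had ratios of 0.35, 0.01 and 1.02. HIF1A itself, added after its value was seen, had ratios of 0.10, -1.36 and -1.42. The list median was 0.08 without replicate 3.

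List medians of oxidative phosphorylation subunits differed by complex, and the differences between complexes were not tested. The 16 measured ATP synthase genes had a median of -0.52, with -0.39, -0.61 and -0.41 on the 3 arrays, and 9 of the 16 lay below 0 on every array, against 27.1% of all genes. None of the 16 passed. ATP5C1, the gamma subunit of the rotor, had ratios of -0.66, -1.03 and -0.82 (adjusted p = 0.0913 by limma). ATP5G3, a subunit of the membrane ring, had ratios of -0.76, -0.96 and -0.88 (adjusted p = 0.148 by limma). Of 36 complex I genes 0 passed, 16 lay below 0 on all 3 arrays and the median was -0.26. Of 8 complex III genes 0 passed and 2 lay below 0 on all 3 arrays, with a median of -0.09. Of 17 complex IV genes 0 passed and 5 lay below 0 on all 3 arrays, and the median of 0.06 turned negative without replicate 1 (-0.10). For complexes III and IV, the counts below 0 were close to the 27.1% of all genes. SDHC was the only one of 6 complex II genes to pass, where 0.189% of all genes were called lower. The catalytic subunit genes were split, with ratios of -1.01, -0.67 and 0.12 for SDHA and of 0.17, 0.42 and 1.37 for SDHB. SUCLG1 was the only one of 19 citric acid cycle genes to pass, 10 of the 19 lay below 0 on all 3 arrays and the median was -0.20. IDH3A, a subunit of isocitrate dehydrogenase, had ratios of -0.43, -1.89 and -2.24, lower on the arrays with dim granulosa markers.

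**Figure D5:**
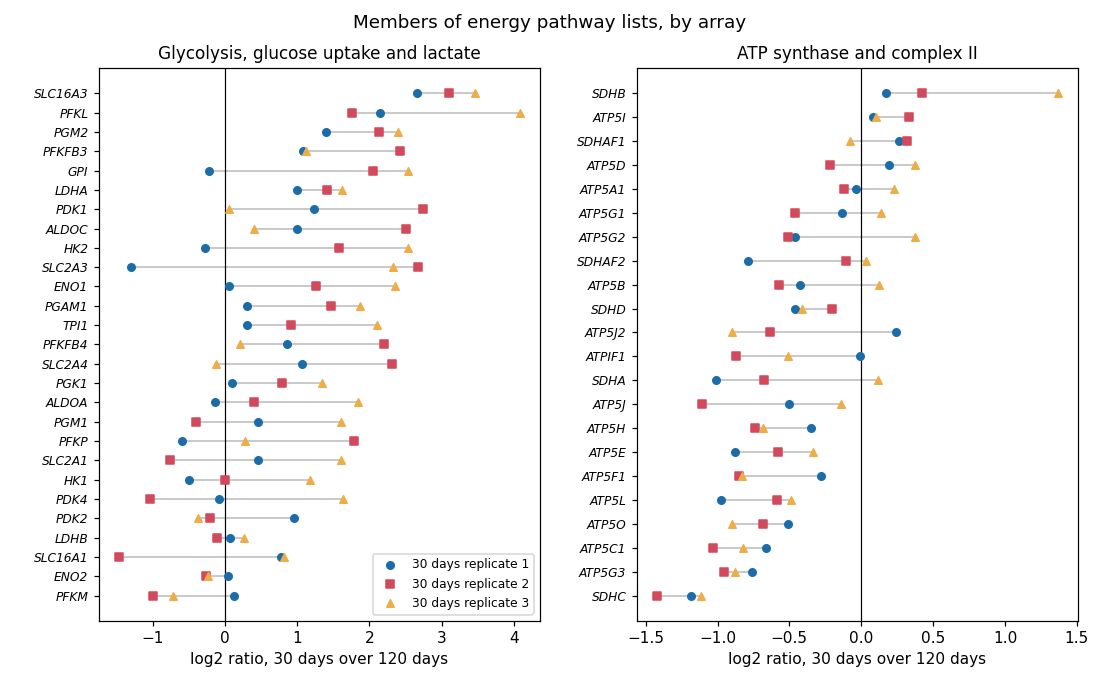
Log2 ratio of 30-day over 120-day signal (x axis) of the measured genes of glycolysis, glucose uptake and lactate (left) and of ATP synthase and complex II (right), 1 symbol per array and genes on the y axis. SLC16A3, PFKL and PGM2 lie above 1 on all 3 arrays, and SDHC lies below -1 on all 3. SLC2A3 and GPI lie below 0 on replicate 1 and above 2 on replicates 2 and 3.

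Steroid hormone genes did not pass and differed between arrays. CYP19A1, the aromatase that makes oestradiol, had ratios of -0.82, -4.40 and -4.52 (mean -3.25 ± 1.16, adjusted p = 0.203 by limma). It was low on all 3 arrays, by far the least on replicate 1. CYP19A1 is itself on the granulosa marker list, and the median of those markers was dim on replicates 2 and 3. CYP11A1, the enzyme that starts steroid synthesis from cholesterol, had ratios of -0.92, -3.28 and -3.82 (adjusted p = 0.152 by limma). HSD3B1, which makes progesterone, was at least 2-fold lower on each array at -1.27, -1.75 and -2.59 (adjusted p = 0.258 by limma). STAR, which carries cholesterol into mitochondria, had its lowest ratio on replicate 1, at -2.59, -0.99 and -0.91. CYP17A1, the thecal enzyme of androgen synthesis, had ratios of -1.56, -0.10 and -0.62. HSD17B1, which reduces oestrone to oestradiol, had 0.44, -0.27 and -0.21, and SCARB1, a receptor that takes up cholesterol from lipoproteins, had -0.20, 0.50 and -0.14. Of the 15 measured genes, 7 lay below 0 on all 3 arrays and 2 above, and the median was -0.23. Of all genes, 27.1% lay below 0 on all 3 arrays and 20.1% above.

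Inhibin and activin subunits, follistatin and AMH took opposite signs on the arrays. INHA, the inhibin alpha subunit, had ratios of 1.77, -3.37 and -3.69, and INHBA, a subunit of activin A, had 1.06, -3.31 and -4.17. INHBB, a subunit of activin B, had ratios of 1.11, -4.62 and -2.99. FST, the activin-binding follistatin, had ratios of 1.88, -3.32 and -2.73. Each was high on replicate 1 and low on replicates 2 and 3, where macrophage markers were bright. INHA, INHBA, INHBB and FST are themselves on the granulosa marker list, as are AMH, FSHR, NR5A2, ESR2, FOXL2, CYP19A1 and HSD17B1. Their likeness to the granulosa markers is therefore not a separate result. STAR, CYP17A1 and LHCGR are on the list of theca markers. AMH, made by granulosa cells of growing follicles, had ratios of 1.14, -0.69 and -0.48. The gonadotrophin receptors kept 1 sign each, FSHR with ratios of -0.13, -1.67 and -0.47 and LHCGR with 1.56, 0.27 and 0.10. NR5A2, a nuclear receptor of steroid-making cells, had ratios of 1.09, 2.53 and -0.64, and ESR2, the oestrogen receptor of granulosa cells, 0.00, 0.10 and 0.00. None of these passed, and means over 3 such arrays describe no single array. PTGS2, the prostaglandin synthase induced at ovulation, was not well above background in the 30-day channel of any array, and was above it in the 120-day channel of 1. FOXL2, a transcription factor that keeps granulosa identity, was near 0 at 0.10, 0.19 and 0.13, and was not well above background in the 120-day channel of any of the 3 arrays.

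Of 23 measured genes of the insulin and IGF system 0 passed. The median was -0.02 and turned positive with median pixel signals, and 9 of the 23 were above background in the 30-day channel of all 3 arrays. Single members lay farther from 0, between -0.19 and 0.87 on replicate 1, between -1.79 and 0.41 on replicate 2 and between -2.76 and 1.27 on replicate 3. On each of replicates 2 and 3, 3 genes were more than 2-fold lower, and 1 was more than 2-fold higher on replicate 3. Of all tested probes, 12.8% on replicate 2 and 8.9% on replicate 3 were past 2-fold in either direction. IGF1 had ratios of -0.17, 0.00 and -0.04, IGF1R 0.03, -0.54 and -0.14, and INSR, the insulin receptor, 0.18, -0.19 and -0.36. The list of fatty acid oxidation and ketone use had a median of -0.06 over 21 genes, of which 0 passed, and the median turned positive without replicate 2 (0.02). CPT1A, the gate of mitochondrial fatty acid uptake, had ratios of 0.02, 0.59 and 0.17 (adjusted p = 0.271 by limma). PDK4, a kinase that switches off pyruvate dehydrogenase, had ratios of -0.08, -1.05 and 1.63. PPARGC1A, a coactivator of mitochondrial genes, had 0.09, -0.86 and -0.13.

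Other lists held few or no calls. Of 18 epithelial markers 0 passed and 12 lay below 0 on all 3 arrays, against 27.1% of all genes, while 2 of the 18 were above background in the 30-day channel of all 3 arrays. Their median was -0.69, with -0.08, -1.72 and -0.30 on the 3 arrays, and was -0.12 without replicate 2 and -1.09 without replicate 1. The median log2 signal of these markers was 7.97, 7.87 and 8.10 in the 30-day channels of replicates 1, 2 and 3. In the 120-day channels it was 8.08, 9.71 and 8.22, highest on replicate 2. KRT8, a keratin, had ratios of -4.55, -1.90 and -2.61, at least 2-fold lower on each array (adjusted p = 0.158 by limma). KRT18, its partner keratin, had ratios of -1.10, -3.10 and -2.67. Of 37 proteasome genes 0 passed and 15 lay below 0 on all 3 arrays, and PSMB5, a catalytic subunit, had ratios of -1.08, -1.51 and -1.25 (adjusted p = 0.0589 by limma). Of 62 cytosolic ribosomal protein genes 0 passed and 29 lay below 0 on every array, with a median of -0.10 that turned positive under median centring. RPS14 had ratios of -1.62, -1.48 and -1.54 (adjusted p = 0.0636 by limma). Of 48 cell cycle genes 0 passed and 19 lay above 0 on all 3 arrays, with a median of 0.17. Beside these counts, 20.1% of all genes lay above 0 on all 3 arrays and 27.1% below.

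Past the calls, 46 genes were at least 2-fold higher on all 3 arrays (0.322% of genes) and 74 at least 2-fold lower (0.518%), counted by a rule added after the data were seen. RBPJ, the DNA-binding partner of Notch, had ratios of 2.30, 3.30 and 4.16 (adjusted p = 0.084 by limma). NR3C1, the glucocorticoid receptor, had ratios of 1.53, 3.04 and 3.39 (adjusted p = 0.069 by limma). GATM, which makes the precursor of creatine, had ratios of -2.32, -3.30 and -4.32 (adjusted p = 0.104 by limma). GPX4, a peroxidase that protects membrane lipids, had ratios of -2.10, -2.27 and -1.44 (adjusted p = 0.0899 by limma). All 4 missed the threshold, and their 1 sign on every array follows from the rule.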

How the data were processed

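Per the labels, each array compared Cy5 RNA of 30, 60 or 90 days with Cy3 RNA of 120 days. The deposited array files give mean and median pixel intensity and local background per spot, not normalised, per the file headers. The authors' deposited value table holds log2 values (medians of the 30-day columns -0.005, 0.0257 and -0.0067). Its columns did not match their own arrays, so its scale, centring and direction stay unknown, and it was not used.

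Of 45220 spots per array, 43794 were probes. Mean intensities were corrected with normexp (offset 50) and loess-normalised within arrays in limma 3.58.1 (R 4.3.3, with data.table in version 1.17.8). Probes were tested when either channel exceeded the negative controls by 2 SD on at least 3 arrays (38823 probes, 88.6%). A table of probe symbols named 21790 probes and left 22004 unnamed. Each of 14281 genes was represented by its brightest probe. 1 limma model over 9 arrays (6 residual and 1.35 prior degrees of freedom) had 1 coefficient per day, with Benjamini-Hochberg adjustment at 0.05. The fit was also run on simulated ratios with independent noise, whose spread was taken from the fit to these arrays. Known changes were planted only in probes of lower spread. The number of arrays limits the precision.

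Genes were named from up to 25 genes higher and 25 lower past the threshold with 1 sign on 3 arrays, up to 4 members per list by p, the 2 brightest of each cell type list, and 29 genes of follicle function and metabolism. Of 1266 list symbols, 1153 were measured, older ones matched through RefSeq names. The comparison, the 47 lists and the named genes were chosen with earlier results of these data known. Same-numbered arrays of 30 and 60 days deviated together (r from 0.34 to 0.51), and the inferred 120-day RNA was the same in each pair, so the numbers were taken to pair these days. Those of 30 and 90 days did not (r from -0.69 to -0.29). By the same inference, 90 days replicates 1 and 2 carried the 120-day RNAs of 30 days replicates 2 and 1, so these numbers do not pair by RNA. Alternatives were other background, normalisation and filter settings, array weights, blocks and left-out arrays.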

Additional observations from a re-analysis of the deposited data

How the results depend on the processing

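For 30 days against 120 days, 79 probes passed, and every one of the 79 kept its direction under the 20 alternatives run. That was largely fixed in advance, since each of them had 1 sign on all 3 arrays. Several alternatives, such as leaving out 1 array of 60 or 90 days, also leave the 30-day means unchanged. The count was 3221 without background correction, 43 with median centring, 120 with median pixel signals and 334 with array weights. It was 0 with eBayes trend and robust settings (8030 at an unadjusted p under 0.05), 0 with the 30-day arrays alone, and 0 without 30 days replicates 2 and 3 and 90 days replicate 1 (1876 at an unadjusted p under 0.05). Leaving out 1 array gave 0 to 186 probes. With the replicate number as a block the count was 59, and with the inferred 120-day RNA as a block it was 71. The replicate number groups 90 days replicates 1 and 2 with 30-day arrays of another inferred 120-day RNA. Neither block changed a call of the other contrasts, which stayed at 0 probes. A paired fit of 30 minus 60 days to the 6 arrays of these days (added after the data were seen) also gave 0 probes. For 30 minus 60 days and for 30 minus 90 days, leaving out 1 array gave 0 to 1 probes, and median centring gave 1 probe for 30 minus 90 days. With all probes of a gene averaged, 9 genes passed for 30 against 120 days in place of 41. The cause of these shifts was not tested. Fits with fewer arrays also have fewer residual degrees of freedom. Of 1320 values of 66 followed genes under alternatives, 481 lost a call and 0 gained one. Only the 39 called genes had a call to lose, and 0 of their values changed direction. Sign changes of genes that were not called were not counted. LOC784294, NBN, PPP1CB, SDHC and SUCLG1 passed in 13 of 20 alternatives, the most of any named gene. Of 240 list medians under 5 alternatives, 210 moved by less than 1 SD of the medians of the 3 arrays. For 3 of the 5 alternatives, which left out 1 of these arrays, that was largely fixed in advance. The measure is also wide where the arrays differ. The macrophage median went from 1.36 to 2.59 without replicate 1, where the medians of the 3 arrays were -1.21, 2.66 and 2.06. The dim 30-day channel of replicate 1 (29.8% of probes above background) limits what that array can show.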

Other observations

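Of the 79 called probes, 28 carry no symbol in the table used. Probe EMBV3_12298 fell by 1.65 on the log2 scale, with -1.48, -1.57 and -1.91 on the 3 arrays, and probe EMBV3_23503 rose by 2.14, with 2.14, 2.12 and 2.17.

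A set of bright probes shared an uneven pattern over the 30-day arrays, listed here after their values were seen. GZMB, a granzyme of cytotoxic lymphocytes, had log2 ratios of 1.13, 2.51 and -0.58 on replicates 1, 2 and 3, NR5A2, a nuclear receptor of granulosa cells, had 1.09, 2.53 and -0.64, and DES, the intermediate filament of muscle, had 1.22, 2.51 and 0.03. None passed the threshold by limma, and the 3 genes mark different cell types.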
